A study of Rattus norvegicus with 12 samples.

Results

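The comparison described here set the 3 rats given acupuncture together with the thrombolytic rt-PA (rt-PA+Acu) against the 3 rats with untreated embolic stroke (Model), across all genes that pass a filter on low counts. Its 6 libraries were chosen by the treatment given in their sample labels, out of 12 libraries in the series. RNA was sequenced from the cerebral cortex of adult male Sprague Dawley rats, with 1 library per rat, so each replicate is an animal. Model rats had a blood clot injected into the middle cerebral artery and received no treatment. The rt-PA+Acu rats had the same clot, manual acupuncture at the points GV26 and PC6 at 2 h and rt-PA at 6 h. The rt-PA group (3 rats) had the clot and rt-PA at 6 h without acupuncture, and the Sham group (3 rats) had surgery without a clot. Values of these groups are given beside those of Model and rt-PA+Acu where they help to place them. No group received acupuncture without rt-PA, so acupuncture alone was not tested. The time from stroke to tissue collection is not given for the sequenced rats.

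Occlusion of a cerebral artery starves neurons of oxygen and glucose, and the injured cortex switches on immediate early genes, stress programs, cytokines and chemokines while transcripts of mature neurons and glia decline. Astrocytes and microglia leave their resting programs, vessels express adhesion molecules, and leukocytes enter from the blood. rt-PA is recombinant tissue plasminogen activator, a protease that turns plasminogen into plasmin, which digests fibrin in a clot.

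The values are raw counts per gene for 17268 genes. Total counts lay between 11678450 and 13080663 in the Model libraries and between 12093250 and 12785267 in the rt-PA+Acu libraries. Levels are given as CPM, counts scaled to library size with TMM factors, which are not corrected for gene length. Over the 12 libraries, 3 counts stood for 0.208 to 0.262 CPM. Fold changes are log2 fold changes of rt-PA+Acu over Model with their standard errors (SE), and a gene was called differentially expressed (a DEG) when its adjusted p was under 0.05 (edgeR quasi-likelihood test, BH adjustment over all genes tested) and its absolute log2 fold change was over 1. Replicate 3 of both groups stood apart. Model replicate 3 lay more than 2-fold from both other Model libraries, on one side of them, at 527 of 13296 genes, against 371 for replicate 1 and 179 for replicate 2. In rt-PA+Acu the same count was 620 for replicate 3, 300 for replicate 1 and 207 for replicate 2.

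Of 12855 genes tested, 1866 were DEGs of rt-PA+Acu vs Model (14.5%). In rt-PA+Acu, 1015 of them were higher (7.9% of the genes tested) and 851 were lower (6.62%). The lower DEGs included most tested chemokines, AP-1 factors and activity-regulated genes, and the higher DEGs included many glutamate receptors and clock genes. The median log2 fold change over all genes tested was 0.01, and that of the DEGs was 1.53 in absolute size. The count was 1391 without rt-PA+Acu replicate 2 and 2305 without rt-PA+Acu replicate 3, the lowest and the highest with 1 library left out, and 1984 without Model replicate 3. An unadjusted p under 0.05 was reached by 5869 of the genes tested (45.7%), and the Model and rt-PA+Acu libraries did not overlap at 6429 (50%), which is the background for genes below whose groups are apart. Against a fold of 2 as the null hypothesis (glmTreat), 397 genes passed. Among 51 lists of cell type markers, pathways and gene families, 869 genes were tested, of which 90 were higher and 147 were lower DEGs.

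**Figure D1:**
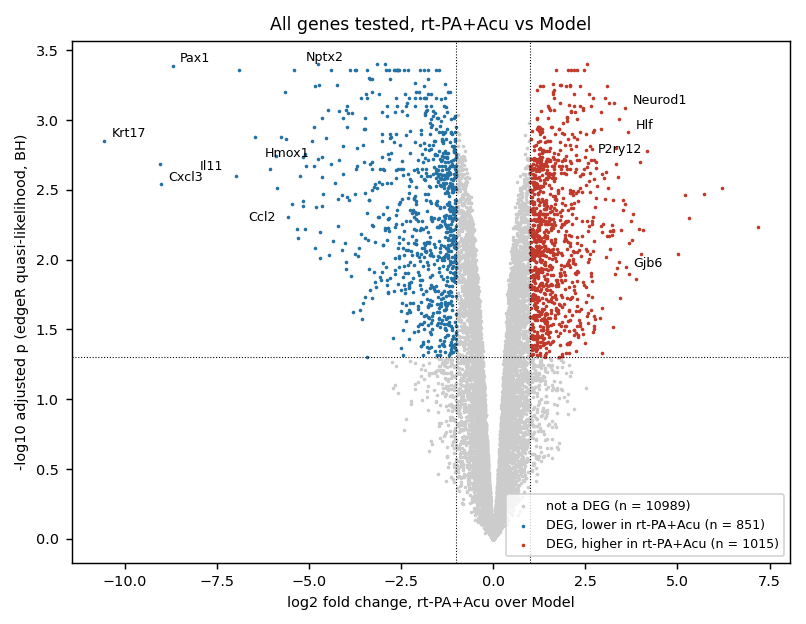
Each point is 1 of 12855 genes tested in rt-PA+Acu vs Model, with its log2 fold change on the x axis and the negative log10 of its adjusted p on the y axis. The 1015 DEGs higher in rt-PA+Acu lie on the right in red and the 851 lower DEGs on the left in blue, and the points farthest out are lower genes such as Krt17 and Pax1.

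The rt-PA libraries, which share the clot and the drug but had no acupuncture, were set beside the comparison. In rt-PA vs Model, which uses the same Model libraries, 0 of 12941 genes were DEGs (0%) by edgeR's quasi-likelihood test. At an unadjusted p under 0.05 the count in that comparison was 1284, and 82 genes were DEGs with DESeq2. With edgeR it had 3 DEGs without Model replicate 3, 1 without rt-PA replicate 1 and 2 without rt-PA replicate 3. In rt-PA+Acu vs rt-PA, which uses the same rt-PA+Acu libraries, 1993 of 12999 genes were DEGs (15.3%). Of the 1015 higher DEGs of rt-PA+Acu vs Model, 766 had all 3 rt-PA libraries on the Model side of the midpoint between the Model and rt-PA+Acu means on the log2 CPM scale, and 14 had all 3 on the rt-PA+Acu side. For the 851 lower DEGs these counts were 700 and 17. The Sham libraries lay on the other side of that midpoint for most DEGs. All 3 Sham libraries were on the rt-PA+Acu side for 877 higher and 721 lower DEGs, and all 3 were on the Model side for 16 higher and 24 lower DEGs.

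To place each library on a scale of injury with libraries that rt-PA+Acu vs Model does not use, a line was drawn from the Sham mean (position 0) to the rt-PA mean (position 1) over the 2940 DEGs of rt-PA vs Sham, which make up 22.6% of the genes tested there. The Model libraries lay at 0.979, 0.947 and 0.824 and the rt-PA+Acu libraries at 0.159, 0.18 and 0.446 (replicates 1, 2 and 3). The groups did not overlap, and rt-PA+Acu replicate 3 was nearest to Model. The mean position was 0.917 ± 0.0815 in Model and 0.261 ± 0.16 in rt-PA+Acu (SD, n = 3), a difference of -0.655. An exact two-sided permutation test gave p = 0.1, the smallest that 3 libraries against 3 allow. Without rt-PA+Acu replicate 3 the difference was -0.748.

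**Figure D2:**
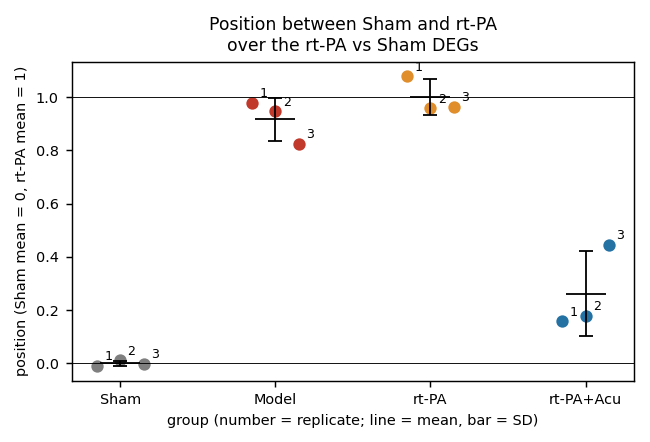
Points are libraries by group (x axis) with their position on the line from the Sham mean to the rt-PA mean (y axis, no unit), numbers are replicates, and lines with bars are means with SD over 3 libraries. The Model libraries sit near the rt-PA libraries, the rt-PA+Acu libraries sit nearer to Sham, and rt-PA+Acu replicate 3 is the highest of its group at 0.446.

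Among DEGs with a mean of at least 5 CPM over the 6 libraries and groups that did not overlap, the largest falls were in genes near 0 in rt-PA+Acu. Krt17, a keratin of stressed epithelium, held 23.8, 12.9 and 9.42 CPM in Model and 0, 0 and 0 in rt-PA+Acu, so it was at least 62.4-fold lower with 3 counts per library in place of 0. Pax1, a paired-box transcription factor of the embryonic skeleton and thymus, held 77.1, 74 and 65.4 CPM in Model and 0, 0 and 0.448 in rt-PA+Acu, with a log2 fold change of -8.71 (SE 0.51, adjusted p = 0.000408). Pou4f3, a transcription factor of inner-ear hair cells, held 75.2, 54.4 and 39.1 CPM in Model and 0.169, 0.175 and 0.97 in rt-PA+Acu, with a log2 fold change of -6.91 (SE 0.51, adjusted p = 0.000436). Each was high in all 3 Model libraries and under 1 CPM in all 3 rt-PA+Acu libraries, as in all 3 Sham libraries. Cyp27b1, which makes the active form of vitamin D, held 60.2, 38.7 and 21.9 CPM in Model and 0, 0.436 and 1.49 in rt-PA+Acu, with a log2 fold change of -5.89 (SE 0.73, adjusted p = 0.00181). Runx3, a transcription factor of lymphocytes and sensory neurons, fell by 5.66 on the log2 scale, Gprc5a, an orphan receptor that retinoic acid induces, fell by 5.63, and Itga2, a collagen-binding integrin, fell by 5.47. In rt-PA, Pax1 held 41.1, 20.4 and 65.9 CPM and Pou4f3 18.5, 10.8 and 37.3 CPM. Every rt-PA library was far above every rt-PA+Acu library at both genes, and at Pou4f3 also below every Model library. Among the largest rises, Neurod1, a neuronal transcription factor, held 1.07, 0.677 and 0.661 CPM in Model and 7.67, 12.7 and 9.1 in rt-PA+Acu, with a log2 fold change of 3.59 (SE 0.34, adjusted p = 0.000821). Akap5, which anchors protein kinase A at synapses, held 13.9, 17.8 and 28.2 CPM in Model and 169.6, 255 and 156 in rt-PA+Acu, with a log2 fold change of 3.27 (SE 0.30, adjusted p = 0.000755).

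**Figure D3:**
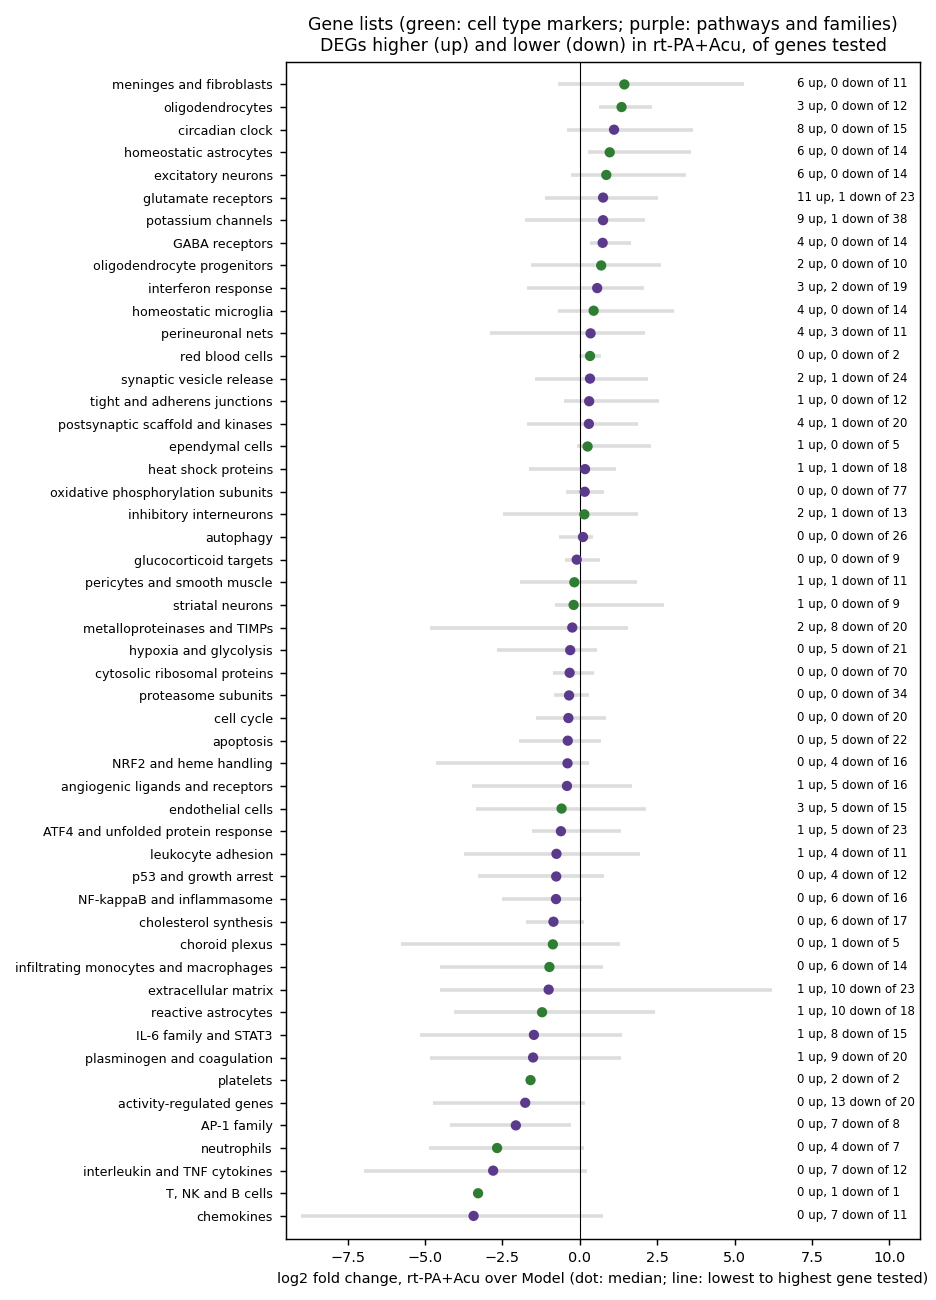
Dots give the median log2 fold change (x axis) of the genes tested in each list (y axis), grey lines run from the lowest to the highest gene, and the text gives the DEGs in each direction out of the genes tested. Chemokines lie lowest at -3.43, and meningeal and fibroblast markers lie highest at 1.44.

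Many secreted signals of inflammation that passed the filter on counts were lower in rt-PA+Acu. Of 19 chemokine genes in the table, 11 were tested, of which 7 fell and 0 rose. Their median log2 fold change was -3.43 (also -3.43 with genes at 0 counts set to their bound) beside 0.01 over all genes. Chemokines near 0 in rt-PA+Acu, such as Cxcl3, passed the filter through the Model libraries. Such genes could only fall, so these counts do not describe the family. Ccl2, which draws monocytes out of the blood, held 160.4, 277 and 145 CPM in Model and 0.0843, 1.05 and 10.6 in rt-PA+Acu, with a log2 fold change of -5.58 (SE 0.96, adjusted p = 0.00496). Cxcl1, a neutrophil attractant, held 21.1, 14.7 and 19.7 CPM in Model and 0.0843, 0.611 and 1.12 in rt-PA+Acu, with a log2 fold change of -4.88 (SE 0.52, adjusted p = 0.00112). For both genes rt-PA+Acu replicate 3 was the highest of its group. Without that library the log2 fold change of Ccl2 was -8.42. Cxcl3 had 0 counts in all 3 rt-PA+Acu libraries and 5.8, 2.46 and 7.43 CPM in Model, at least 21.2-fold lower. Among genes with at least 10 counts in every library, a filter that most of the fallen chemokines do not pass, the list's median was 0.32. Among interleukin and TNF family cytokines, 12 of 19 in the table were tested, of which 7 fell and 0 rose (median -2.80). The same limit holds for those near 0 in rt-PA+Acu, such as Il11. Il11, a cytokine of the IL-6 family, held 83.4, 57.3 and 15.9 CPM in Model and 0, 0 and 1.12 in rt-PA+Acu, with a log2 fold change of -6.98 (SE 0.99, adjusted p = 0.0025). Without rt-PA+Acu replicate 3 its 2 other rt-PA+Acu libraries have 0 counts, so no fold is given. Lif, of the same family, held 125, 72.4 and 31.9 CPM in Model and 0.674, 0.436 and 5.00 in rt-PA+Acu, with a log2 fold change of -5.17 (SE 0.83, adjusted p = 0.00382). Tgfb1, which encodes transforming growth factor beta 1, held 44.1, 48.8 and 42 CPM in Model and 6.41, 8.03 and 11 in rt-PA+Acu, with a log2 fold change of -2.40 (SE 0.21, adjusted p = 0.000652). Il1rn, the natural antagonist of interleukin 1, fell by 3.70 on the log2 scale. On the chemokines list, higher DEGs numbered 1 without Model replicate 2 or rt-PA+Acu replicate 3. On the chemokines list, the median was -2.22 without Model replicate 3, -1.83 without rt-PA+Acu replicate 1, -1.78 without rt-PA+Acu replicate 2 and -5.71 without rt-PA+Acu replicate 3. For chemokines it was -2.26 with DESeq2 and -2.23 with every gene of at least 1 count kept. For interleukin and TNF cytokines the median was -0.092 among genes with at least 10 counts in every library.

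Apart from the interferon response list, lists of receptors and intracellular relays of these signals also held more lower than higher DEGs. The list of the IL-6 family and STAT3 had 8 lower and 1 higher DEGs of 15 tested (median -1.48). Socs3, a feedback inhibitor that STAT3 induces, held 178, 153 and 131 CPM in Model and 2.78, 5.41 and 28.4 in rt-PA+Acu, with a log2 fold change of -3.64 (SE 0.72, adjusted p = 0.00832). Osmr, the oncostatin M receptor subunit, held 55.7, 58.6 and 60.5 CPM in Model and 3.12, 9.34 and 15.3 in rt-PA+Acu, with a log2 fold change of -2.64 (SE 0.45, adjusted p = 0.00479). Of 16 genes tested on the NF-kappaB and inflammasome list, 6 fell and 0 rose (median -0.77), among them Tnfaip3, an inhibitor of NF-kappaB signalling, with a log2 fold change of -1.81 (SE 0.17, adjusted p = 0.000847). Leukocyte adhesion genes split. Icam1, which encodes an endothelial ligand of leukocyte integrins, held 64.5, 65.8 and 52.7 CPM in Model and 3.12, 3.75 and 6.64 in rt-PA+Acu, with a log2 fold change of -3.75 (SE 0.28, adjusted p = 0.000436). Vcam1, which encodes another endothelial adhesion molecule, went the other way, from 10.4, 17 and 17.1 CPM to 70.4, 57.1 and 43.4, with a log2 fold change of 1.94 (SE 0.25, adjusted p = 0.00192). At Vcam1 all 3 rt-PA+Acu libraries were above all Model libraries, and Sham held 70.9, 86.1 and 68.1 CPM. The list as a whole had 4 lower and 1 higher DEGs of 11 (median -0.75). The interferon response list had 3 higher and 2 lower DEGs of 19 and a median of 0.56. On it Mx2, a dynamin-like antiviral GTPase, rose by 1.34, and Irf1, an interferon-induced transcription factor, fell by 1.43. On the IL-6 family and STAT3 list, lower DEGs numbered 4 without rt-PA+Acu replicate 2. On the IL-6 family and STAT3 list, higher DEGs numbered 0 without Model replicate 1, 2 or 3 or rt-PA+Acu replicate 1, 2 or 3. On the NF-kappaB and inflammasome list, lower DEGs numbered 2 without Model replicate 2 or 3 or rt-PA+Acu replicate 2 and 3 without rt-PA+Acu replicate 1. On the leukocyte adhesion list, lower DEGs numbered 7 without rt-PA+Acu replicate 3. On the interferon response list, higher DEGs numbered 1 without Model replicate 1, 2 or 3 or rt-PA+Acu replicate 3. On the interferon response list, lower DEGs numbered 1 without Model replicate 2 or 3 or rt-PA+Acu replicate 1 or 2. On the leukocyte adhesion list, the median was -1.13 without Model replicate 1 and -0.25 without Model replicate 3. On the interferon response list, the median was 0.33 without Model replicate 1, 0.87 without Model replicate 2 and 0.25 without rt-PA+Acu replicate 3. For interferon response it was 0.17 among genes with at least 10 counts in every library.

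**Figure D4:**
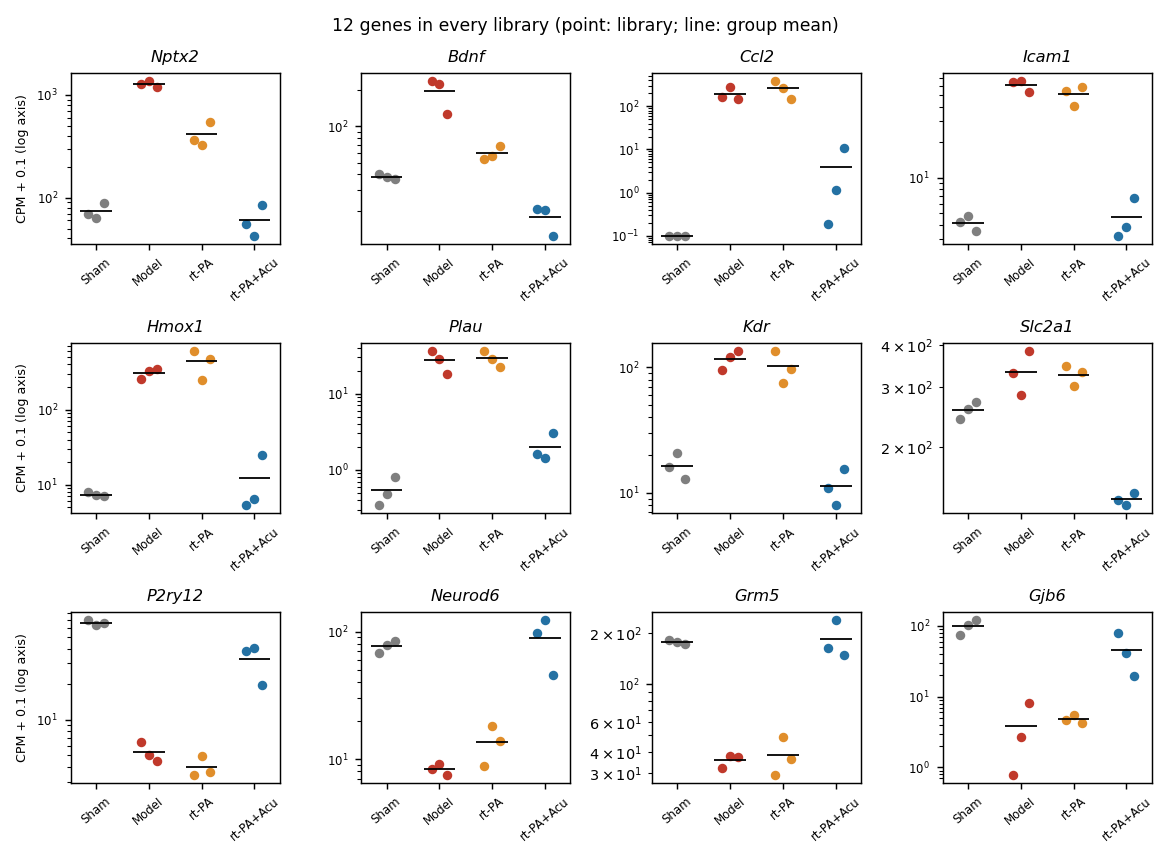
Each panel shows 1 gene in all 12 libraries, with CPM plus 0.1 on a log y axis, groups on the x axis, points for libraries and a line at the group mean. Nptx2, Bdnf, Ccl2, Icam1, Hmox1, Plau, Kdr and Slc2a1 have all rt-PA+Acu points below the Model points, and P2ry12, Neurod6, Grm5 and Gjb6 have them above.

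Some markers of blood-borne leukocytes fell and some markers of resting microglia rose in rt-PA+Acu. In bulk cortex, fewer cells of a type and less RNA per cell cannot be told apart, here and for every cell type below. Infiltrating monocyte and macrophage markers had 6 lower and 0 higher DEGs of 14 tested (median -0.98), and their summed level was 554, 569.7 and 629.9 CPM in Model and 176, 229.9 and 289.7 CPM in rt-PA+Acu. The gene with the most counts among them in these 6 libraries was Gpnmb, a glycoprotein of phagocytes, at 133, 147 and 114 CPM in Model and 59.9, 66 and 136 in rt-PA+Acu. Its groups overlapped and it was not a DEG, with a log2 fold change of -0.58. That value was -0.37 without rt-PA+Acu replicate 1. Without rt-PA+Acu replicate 3 it was -1.06 (adjusted p = 0.00201), where Gpnmb was a DEG. Cd14, the co-receptor for bacterial lipopolysaccharide, held 96.9, 76 and 101 CPM in Model and 0.927, 2.79 and 9.93 in rt-PA+Acu, with a log2 fold change of -4.29 (SE 0.63, adjusted p = 0.00284). Lyz2, which encodes lysozyme, held 96.5, 73.9 and 122 CPM in Model, 24.5, 20.9 and 29.5 in rt-PA+Acu and 53.8, 61.2 and 47.5 in Sham, with a log2 fold change of -1.96 (SE 0.21, adjusted p = 0.00118). Every rt-PA+Acu library was below every Sham library at Lyz2. Neutrophil markers had 4 lower DEGs of 7 tested (median -2.67) out of 15 in the table, of which 3, the granule protein genes Ltf, Mpo and Elane, had 0 counts in all 12 libraries. Their summed level was 102, 99.6 and 133 CPM in Model and 25.7, 32.4 and 30.3 CPM in rt-PA+Acu, most of it from Mmp9, which other cells of injured brain also express, and the part of these cells in the result was not tested. Mmp9, a gelatinase, held 84.1, 77.9 and 105 CPM in Model and 18.5, 25.8 and 22.1 in rt-PA+Acu, with a log2 fold change of -2.01 (SE 0.17, adjusted p = 0.000625). S100a9, which encodes an S100 calcium-binding protein, lay at 0.534, 2.79 and 6.28 CPM in Model and 0.927, 0.349 and 0.149 in rt-PA+Acu. Its groups overlapped, and it was a DEG without Model replicate 1 and by DESeq2. Among T, NK and B cell markers 1 of 12 passed the filter on counts, Il2rb, a subunit of the interleukin 2 receptor, which fell by 3.29 on the log2 scale. It held 3.82, 2.03 and 2.31 CPM in Model and 0.253, 0.175 and 0.373 in rt-PA+Acu. It thus passed the filter through the Model libraries, and its fall says nothing about these cells. The median of that list was -0.85 with DESeq2 and -0.73 with every gene of at least 1 count kept. Platelet markers had 2 lower DEGs of 2 tested (median -1.59) out of 8 in the table, and 1 with any 1 library left out. The platelet median was -0.42 with DESeq2 and -0.41 with every gene of at least 1 count kept. Ppbp, a platelet chemokine gene, had 0 counts in all 12 libraries. Red blood cell markers had 0 DEGs of 2 by edgeR's test, 0 at an unadjusted p under 0.05 (beside 45.7% of all genes) and 0 by DESeq2. Homeostatic microglia markers had 4 higher and 0 lower DEGs of 14 (median 0.45). P2ry12, the purinergic receptor by which resting microglia sense ATP and ADP, held 6.41, 4.91 and 4.38 CPM in Model and 37.8, 40.2 and 19.4 in rt-PA+Acu, with a log2 fold change of 2.63 (SE 0.31, adjusted p = 0.00153). Sall1, a transcription factor of microglial identity, held 19.6, 19.7 and 19.3 CPM in Model and 47.4, 42.1 and 56.7 in rt-PA+Acu, with a log2 fold change of 1.32 (SE 0.14, adjusted p = 0.00122). The summed level of the microglia list was 676, 561 and 676 CPM in Model and 654, 718 and 628 CPM in rt-PA+Acu and the groups overlapped. The part of these cells in the result was not tested. For neutrophils the median was -0.01 among genes with at least 10 counts in every library. That filter removes markers with few counts, such as S100a9, so the median of this list depends on the filter.

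**Figure D5:**
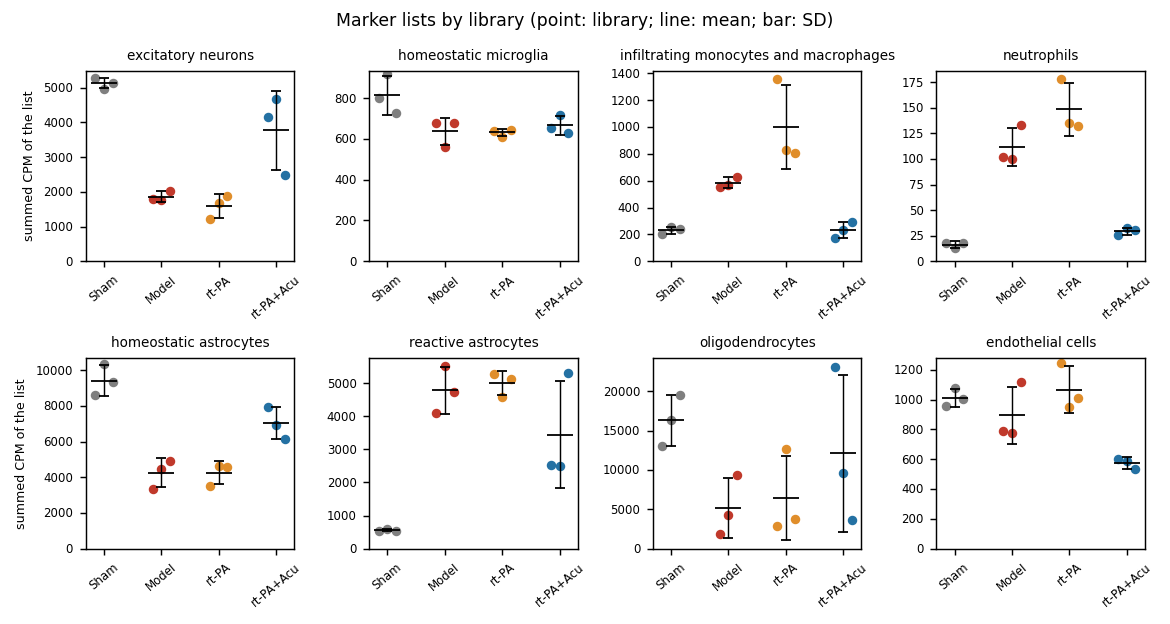
Each panel shows the summed CPM of the genes of 1 marker list (y axis, from 0) in the libraries of each group (x axis), with the mean and SD over 3 libraries. Endothelial markers are lowest in the 3 rt-PA+Acu libraries, and oligodendrocyte markers spread from 3608 to 23139 CPM within rt-PA+Acu.

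The plasminogen system, on which rt-PA acts, was lower at many genes in rt-PA+Acu. Of 20 plasminogen and coagulation genes tested, 9 fell and 1 rose, with a median log2 fold change of -1.51. Plat, which encodes the rat's own tissue plasminogen activator, held 102, 119 and 143 CPM in Model and 58.5, 64.1 and 65.6 in rt-PA+Acu, and its log2 fold change of -0.95 (SE 0.14, adjusted p = 0.00306) was just short of the fold threshold. It was -1.07 (adjusted p = 0.00546) without Model replicate 1, which passed. Plau, which encodes urokinase, held 36.5, 28.8 and 18.1 CPM in Model and 1.52, 1.31 and 2.91 in rt-PA+Acu, with a log2 fold change of -3.84 (SE 0.38, adjusted p = 0.000887). Plaur, the urokinase receptor, held 28.9, 21.4 and 12.8 CPM in Model and 1.35, 1.92 and 5.45 in rt-PA+Acu, with a log2 fold change of -2.83 (SE 0.52, adjusted p = 0.00626). Tfpi2, a protease inhibitor of the extracellular matrix, held 9.08, 5.67 and 9.33 CPM in Model and 0.253, 0.349 and 0.224 in rt-PA+Acu, with a log2 fold change of -4.83 (SE 0.40, adjusted p = 0.000567). Anxa2, a cell-surface docking site for plasminogen and its activator, held 226, 189.7 and 134 CPM in Model and 25.7, 13.8 and 27.5 in rt-PA+Acu, with a log2 fold change of -3.03 (SE 0.30, adjusted p = 0.000873). Serpini1, which encodes neuroserpin, the neuronal inhibitor of tissue plasminogen activator, was the 1 gene of the list that rose, from 147, 178 and 153 CPM to 496, 428 and 277, with a log2 fold change of 1.33 (SE 0.21, adjusted p = 0.00365). In rt-PA vs Model the log2 fold changes were 0.10 for Plat, 0.068 for Plau and -0.05 for Serpini1. For plasminogen and coagulation the median was -0.95 with DESeq2, -0.95 with every gene of at least 1 count kept, -0.71 among genes with at least 10 counts in every library and -0.95 in 1 fit over all 12 libraries.

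The promoters of 3 lower DEGs of this list are shown as examples of windows with the AP-1 motif TGANTCA, whose letters are in capitals. They were picked by hand because they carry the motif, after fold changes and motif matches had been seen, so they do not stand for the list. This motif reads the same on both strands. The sequences are from RefSeq (build GRCr8), 250 bases before to 50 bases after the annotated start, and are written 5′ to 3′ on the gene's strand. A promoter was at hand for 10425 of the genes tested, with 1 window used per gene. The motif was in 7.33% of the windows of all 27457 symbols and in 4.95% of those of genes tested, in 10.3% of the 658 windows of lower DEGs and in 4.96% of the 787 windows of higher DEGs. On the plasminogen and coagulation list it was in 8 of 15 windows, and in 4 of the 6 windows of the lower DEGs. In the windows shown it overlapped 0 matches of the other motifs searched, which were the cAMP response element TGACGTCA, the heat shock element GAANNTTC or TTCNNGAA, and the antioxidant response element TGACNNNGC or GCNNNGTCA. The windows are Plaur at chr1:89181113-89181412 (plus strand), Tfpi2 at chr4:32941227-32941526 (minus strand) and Anxa2 at chr8:78986002-78986301 (plus strand). A match of letters is a description of the window and does not show that a factor binds there.
Plaur: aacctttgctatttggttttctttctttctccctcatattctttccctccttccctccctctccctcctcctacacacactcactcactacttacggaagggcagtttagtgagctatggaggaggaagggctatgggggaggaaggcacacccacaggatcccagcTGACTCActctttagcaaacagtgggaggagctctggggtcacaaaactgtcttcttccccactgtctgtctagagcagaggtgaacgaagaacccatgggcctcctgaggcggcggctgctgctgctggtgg
Tfpi2: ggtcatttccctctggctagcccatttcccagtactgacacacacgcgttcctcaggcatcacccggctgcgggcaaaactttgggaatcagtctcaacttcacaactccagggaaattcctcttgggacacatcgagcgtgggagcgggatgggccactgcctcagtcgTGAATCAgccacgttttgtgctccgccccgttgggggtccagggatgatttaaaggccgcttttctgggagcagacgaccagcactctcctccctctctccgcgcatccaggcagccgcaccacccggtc
Anxa2: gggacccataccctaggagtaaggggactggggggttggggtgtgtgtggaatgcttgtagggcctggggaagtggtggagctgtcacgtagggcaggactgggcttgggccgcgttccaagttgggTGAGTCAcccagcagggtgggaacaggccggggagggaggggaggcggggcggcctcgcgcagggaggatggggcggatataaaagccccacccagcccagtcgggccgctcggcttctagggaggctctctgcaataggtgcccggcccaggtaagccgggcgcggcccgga

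Protease and matrix lists also held more lower than higher DEGs. Metalloproteinases and their inhibitors had 8 lower and 2 higher DEGs of 20 tested, with a median of -0.24. Adamts9, a protease of proteoglycans, held 46, 37.3 and 66 CPM in Model and 3.12, 3.23 and 6.79 in rt-PA+Acu, with a log2 fold change of -3.49 (SE 0.35, adjusted p = 0.000963). Timp1, an inhibitor of metalloproteinases, held 229, 314 and 141 CPM in Model and 23.3, 13.9 and 56.3 in rt-PA+Acu, with a log2 fold change of -2.87 (SE 0.52, adjusted p = 0.0059). Mmp2, a gelatinase, rose by 1.24. In the extracellular matrix list 10 of 23 genes fell and 1 rose (median -1.01). Thbs1, which encodes thrombospondin 1, held 100.3, 116 and 99.6 CPM in Model and 1.43, 5.24 and 7.16 in rt-PA+Acu, with a log2 fold change of -4.50 (SE 0.44, adjusted p = 0.000847). Col4a1, a collagen of basement membranes, held 202, 209 and 395 CPM in Model and 52.6, 65.6 and 76.1 in rt-PA+Acu, with a log2 fold change of -2.05 (SE 0.28, adjusted p = 0.00236). The 1 matrix gene that rose was Itga11, a collagen-binding integrin with 3 counts in all of Model, so no fold is given. On the metalloproteinases and TIMPs list, lower DEGs numbered 5 without Model replicate 1 or 2 or rt-PA+Acu replicate 1 or 2. On the metalloproteinases and TIMPs list, higher DEGs numbered 1 without Model replicate 2. On the metalloproteinases and TIMPs list, the median was -0.39 without Model replicate 2, -0.096 without Model replicate 3 and -0.47 without rt-PA+Acu replicate 1. For metalloproteinases and TIMPs it was -0.78 with DESeq2, -0.78 with every gene of at least 1 count kept, -0.093 among genes with at least 10 counts in every library and -0.53 in 1 fit over all 12 libraries.

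Most genes on the list of those that neuronal firing induces fell in rt-PA+Acu. Of 20 activity-regulated genes tested, 13 fell and 0 rose (median -1.76), and of 8 genes of the AP-1 family 7 fell (median -2.07). Nptx2, a synaptic pentraxin that clusters AMPA receptors, held 1288, 1366 and 1200.5 CPM in Model and 55.8, 42.4 and 84.7 in rt-PA+Acu, with a log2 fold change of -4.40 (SE 0.27, adjusted p = 0.000436). Sham held 69.8, 62.9 and 87.6 CPM and rt-PA 367, 322 and 546 CPM of Nptx2, so rt-PA+Acu and Sham overlapped and rt-PA lay between them and Model. Bdnf, a neurotrophin, held 235, 220.3 and 125 CPM in Model, 20.6, 20.4 and 12.4 in rt-PA+Acu and 40.2, 37.8 and 36.7 in Sham, with a log2 fold change of -3.45 (SE 0.30, adjusted p = 0.000648). Egr2, an early growth response transcription factor, held 53.6, 28.9 and 16.1 CPM in Model, 1.43, 2.53 and 1.87 in rt-PA+Acu and 22.2, 18.1 and 14.8 in Sham, with a log2 fold change of -4.08 (SE 0.48, adjusted p = 0.00154). For Bdnf and Egr2 every rt-PA+Acu library lay below all 9 other libraries. Inhba, which encodes a subunit of activin, held 198, 131 and 71.6 CPM in Model and 4.64, 4.89 and 5.52 in rt-PA+Acu, with a log2 fold change of -4.73 (SE 0.38, adjusted p = 0.000559). Fosb, a partner of Jun in AP-1, held 122, 95.2 and 132 CPM in Model and 8.01, 16 and 11.9 in rt-PA+Acu, with a log2 fold change of -3.28 (SE 0.25, adjusted p = 0.000507). Jun, a core member of AP-1, fell by 1.96 and Atf3, a stress-induced member of the same family of leucine zipper factors, by 4.19 on the log2 scale, and Jund, a close relative of Jun, had a log2 fold change of -0.30 with overlapping groups (0.02 without Model replicate 3).

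Vgf, a secreted neuropeptide precursor, belongs to the lower DEGs with the most counts. It held 1376, 1189.9 and 1146 CPM in Model, 65, 93.1 and 123 in rt-PA+Acu, 192, 190.3 and 152 in Sham and 876, 729.9 and 861 in rt-PA, with a log2 fold change of -3.72 (SE 0.24, adjusted p = 0.000436) for rt-PA+Acu vs Model. Its promoter from RefSeq (GRCr8), at chr12:25276971-25277270 (minus strand), was also picked by hand after its values and its match had been seen. It is an example of a window with the cAMP response element TGACGTCA, in capitals, which reads the same on both strands and overlapped 0 matches of the other motifs. The window also holds 2 matches of the antioxidant response element, which are not in capitals. The cAMP response element was in 1.91% of all windows, in 3.15% of those of genes tested, in 3.5% of those of lower DEGs and in 1.4% of those of higher DEGs. Among activity-regulated genes it was in 3 of 17 windows.
Vgf: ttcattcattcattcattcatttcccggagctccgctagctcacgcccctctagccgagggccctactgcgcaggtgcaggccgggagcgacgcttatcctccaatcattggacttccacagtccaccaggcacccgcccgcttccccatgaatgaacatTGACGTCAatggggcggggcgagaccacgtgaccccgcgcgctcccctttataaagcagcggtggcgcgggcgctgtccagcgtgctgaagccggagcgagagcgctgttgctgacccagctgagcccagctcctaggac
Scg2, which encodes secretogranin II, held 1529.8, 975 and 1031 CPM in Model and 145, 148 and 174 in rt-PA+Acu, with a log2 fold change of -2.92 (SE 0.20, adjusted p = 0.000436). Npy, which encodes neuropeptide Y of interneurons, held 197, 183 and 127 CPM in Model and 21.7, 31.7 and 37.5 in rt-PA+Acu, with a log2 fold change of -2.48 (SE 0.24, adjusted p = 0.000868). Rgs4, a brake on G protein signalling, held 1639, 1269 and 779.5 CPM in Model and 593, 367 and 405 in rt-PA+Acu, with a log2 fold change of -1.43 (SE 0.29, adjusted p = 0.00888).

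Stress programs differed in how far they moved. The NRF2 and heme list had 4 lower and 0 higher DEGs of 16 (median -0.40). Hmox1, the heme oxygenase that degrades heme from damaged cells and blood, held 253, 331 and 344 CPM in Model and 5.23, 6.46 and 25.1 in rt-PA+Acu, with a log2 fold change of -4.64 (SE 0.58, adjusted p = 0.00183). Of 23 ATF4 and unfolded protein response genes, 5 fell and 1 rose (median -0.61). Atf4, the transcription factor of the integrated stress response, held 447, 419 and 493 CPM in Model and 142, 144 and 180.4 in rt-PA+Acu, with a log2 fold change of -1.54 (SE 0.14, adjusted p = 0.000692). The p53 and growth arrest list had 4 lower DEGs of 12 (median -0.76), with Cdkn1a, the cell cycle inhibitor p21, at -2.15 (SE 0.29, adjusted p = 0.00228). Hypoxia and glycolysis genes had 5 lower DEGs of 21 (median -0.31). Ldha, which encodes lactate dehydrogenase A, held 816, 959 and 810.3 CPM in Model and 382, 489.8 and 413 in rt-PA+Acu, with a log2 fold change of -1.01 (SE 0.14, adjusted p = 0.00231), log2 fold change -0.94 without Model replicate 2, log2 fold change -0.93 without rt-PA+Acu replicate 1 and log2 fold change -0.99 without rt-PA+Acu replicate 3. Of 22 apoptosis genes 5 fell and 0 rose (median -0.39). The list mixes genes that favour and genes that restrain cell death, so its counts have no single reading. Bax, a pore-forming protein of mitochondria, was at -0.31 (SE 0.21) with overlapping groups, and at -0.16 without rt-PA+Acu replicate 2 and -0.55 without rt-PA+Acu replicate 3. Cholesterol synthesis genes had 6 lower DEGs of 17 (median -0.85), with Insig1, which restrains sterol synthesis, at -1.67. Heat shock proteins had 1 higher and 1 lower DEG of 18 (median 0.17), beside 7.9% higher and 6.62% lower over all genes tested. Hspb1, a small heat shock protein of injured tissue, lay at 279.9, 282 and 321 CPM in Model and 63.5, 53.9 and 271 in rt-PA+Acu, where replicate 3 was close to Model and the difference was not called, with a log2 fold change of -1.18 (adjusted p = 0.14). It was -2.33 (adjusted p = 0.000228) without rt-PA+Acu replicate 3, where it was a DEG. On the ATF4 and unfolded protein response list, lower DEGs numbered 2 without Model replicate 3 or rt-PA+Acu replicate 2, 3 without rt-PA+Acu replicate 1 and 10 without rt-PA+Acu replicate 3. On the ATF4 and unfolded protein response list, higher DEGs numbered 0 without Model replicate 2 and 2 without Model replicate 3. On the NRF2 and heme handling list, lower DEGs numbered 2 without Model replicate 1 or rt-PA+Acu replicate 1. On the hypoxia and glycolysis list, lower DEGs numbered 3 without Model replicate 2 or rt-PA+Acu replicate 1. On the apoptosis list, lower DEGs numbered 3 without Model replicate 1 or 2 or rt-PA+Acu replicate 2. On the heat shock proteins list, lower DEGs numbered 3 without rt-PA+Acu replicate 3. On the heat shock proteins list, higher DEGs numbered 0 without rt-PA+Acu replicate 3. Autophagy and cell cycle lists had 0 DEGs of 26 and 20 genes by edgeR's quasi-likelihood test, and 8 and 3 of these genes had an unadjusted p under 0.05 (beside 45.7% of all genes tested), while DESeq2 called 0 and 0. On the cell cycle list, lower DEGs numbered 4 without rt-PA+Acu replicate 3. On the heat shock proteins list, the median was 0.32 without rt-PA+Acu replicate 1, 0.36 without rt-PA+Acu replicate 2 and -0.31 without rt-PA+Acu replicate 3. For heat shock proteins it was 0.087 with the replicate block.

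Some genes of mature neurons and of synaptic transmission rose in rt-PA+Acu. Excitatory neuron markers had 6 higher and 0 lower DEGs of 14 (median 0.86). Their summed level was 1783, 1762 and 2034 CPM in Model and 4162, 4668 and 2484 CPM in rt-PA+Acu, and their part in the result was not tested. Slc17a7, a vesicular glutamate transporter, had the most counts among them. It was not a DEG, but was called without rt-PA+Acu replicate 3, with a log2 fold change of 1.12. Neurod6, a transcription factor of cortical excitatory neurons, held 8.24, 9.06 and 7.43 CPM in Model and 97, 123 and 46 in rt-PA+Acu, with a log2 fold change of 3.42 (SE 0.35, adjusted p = 0.00098). Cux2, a transcription factor of upper cortical layers, held 33.2, 24.2 and 39.1 CPM in Model and 77.3, 119.7 and 105 in rt-PA+Acu, with a log2 fold change of 1.65 (SE 0.22, adjusted p = 0.00213). Camk2a, the postsynaptic kinase of excitatory neurons, held 586, 472 and 562 CPM in Model, 1591, 1630.4 and 894 in rt-PA+Acu and 2837, 2649.5 and 2516 in Sham, with a log2 fold change of 1.34 (SE 0.23, adjusted p = 0.00522). At Camk2a the rt-PA+Acu libraries lay above Model and below Sham. Interneuron markers had 2 higher and 1 lower DEGs of 13 (median 0.15), with Gad1, the GABA-synthesizing enzyme, at -0.26 and overlapping groups. The value of Gad1 was -0.17 without Model replicate 1 or rt-PA+Acu replicate 2, -0.39 without Model replicate 3, -0.095 without rt-PA+Acu replicate 1 and -0.55 without rt-PA+Acu replicate 3. On the inhibitory interneurons list, higher DEGs numbered 1 without Model replicate 2 or rt-PA+Acu replicate 3. On the inhibitory interneurons list, the median was 0.085 without Model replicate 3, 0.24 without rt-PA+Acu replicate 1 and -0.080 without rt-PA+Acu replicate 3.

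Glutamate receptors had 11 higher and 1 lower DEG of 23 tested, with a median of 0.75. Grm5, a metabotropic glutamate receptor, held 32, 37.9 and 37.4 CPM in Model and 162, 238 and 148 in rt-PA+Acu, with a log2 fold change of 2.35 (SE 0.20, adjusted p = 0.000567). Gria2, the AMPA receptor subunit that limits calcium entry, held 434, 429.9 and 408 CPM in Model and 1099, 1235 and 806 in rt-PA+Acu, with a log2 fold change of 1.30 (SE 0.17, adjusted p = 0.00192). Grm7, a presynaptic receptor, fell by 1.11, log2 fold change -0.96 without rt-PA+Acu replicate 3. GABA receptor genes had 4 higher DEGs of 14 (median 0.74), among them Gabrb2 with a log2 fold change of 1.64 (SE 0.20, adjusted p = 0.00171), and 14 of the 14 had a fold change above 0. Of 38 potassium channel genes 9 rose and 1 fell (median 0.75). Kcnd2, a channel of dendrites that opens transiently, held 20.8, 29.7 and 33.5 CPM in Model and 126, 115 and 92 in rt-PA+Acu, with a log2 fold change of 1.99 (SE 0.20, adjusted p = 0.000951). Genes of vesicle release had 2 higher and 1 lower DEG of 24 (median 0.33). These counts are near or below the shares over all genes tested, 7.9% higher and 6.62% lower. The postsynaptic scaffold list had 4 higher and 1 lower DEG of 20 (median 0.29). Perineuronal net genes went both ways, with 4 higher and 3 lower DEGs of 11 (median 0.35). Acan, the core protein aggrecan, held 45.8, 67.9 and 33.3 CPM in Model and 9.78, 4.63 and 6.87 in rt-PA+Acu, with a log2 fold change of -2.79 (SE 0.34, adjusted p = 0.00173), while its link protein Hapln1 held 5.65, 5.08 and 8.34 CPM in Model and 29.2, 31.9 and 20.8 in rt-PA+Acu, with a log2 fold change of 2.10 (SE 0.25, adjusted p = 0.00161). On the glutamate receptors list, lower DEGs numbered 0 without rt-PA+Acu replicate 3. On the GABA receptors list, higher DEGs numbered 2 without rt-PA+Acu replicate 2. On the potassium channels list, lower DEGs numbered 2 without Model replicate 1 or rt-PA+Acu replicate 1. On the synaptic vesicle release list, higher DEGs numbered 1 without Model replicate 1 or 2 or rt-PA+Acu replicate 1 or 2. On the synaptic vesicle release list, the median was 0.17 without rt-PA+Acu replicate 2. On the postsynaptic scaffold and kinases list, the median was 0.19 without rt-PA+Acu replicate 2. On the perineuronal nets list, the median was -0.04 without Model replicate 1, 0.076 without Model replicate 2, 0.94 without Model replicate 3, -0.17 without rt-PA+Acu replicate 1 and 0.82 without rt-PA+Acu replicate 3. For perineuronal nets it was 0.76 among genes with at least 10 counts in every library and 0.55 with the replicate block.

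Some astrocyte markers of the resting state rose, and some of the reactive state fell. Homeostatic astrocyte markers had 6 higher and 0 lower DEGs of 14 (median 0.97). Their summed level was 3331, 4485 and 4901 CPM in Model and 7964, 6946 and 6163 CPM in rt-PA+Acu. Glul had the most counts among them and was not a DEG. Its groups overlapped, with a log2 fold change of 0.25, which was 0.03 without Model replicate 1 and 0.45 without Model replicate 3. Gjb6, a connexin of astrocyte gap junctions, held 0.687, 2.62 and 8.09 CPM in Model and 77.9, 41 and 19.3 in rt-PA+Acu, with a log2 fold change of 3.60 (SE 0.78, adjusted p = 0.0113), and adjusted p = 0.0561 with the replicate block and adjusted p = 0.0506 without Model replicate 2. Kcnj10, the channel by which astrocytes buffer potassium, held 44.4, 89 and 106 CPM in Model and 668, 474 and 308 in rt-PA+Acu, with a log2 fold change of 2.60 (SE 0.38, adjusted p = 0.00274). Aqp4, the water channel of astrocyte endfeet, held 293, 430.1 and 329 CPM in Model and 799, 821 and 843 in rt-PA+Acu, with a log2 fold change of 1.23 (SE 0.16, adjusted p = 0.00192). Of 18 reactive astrocyte markers 10 fell and 1 rose (median -1.22). Cd44, a receptor for hyaluronan, held 327, 217 and 192 CPM in Model and 22.2, 25.7 and 88.4 in rt-PA+Acu, with a log2 fold change of -2.43 (SE 0.53, adjusted p = 0.0112). Gfap, the intermediate filament that defines reactive astrocytes, held 2485, 4085 and 3456 CPM in Model, 2189, 2184 and 4378 in rt-PA+Acu and 397, 414 and 363 in Sham, with a log2 fold change of -0.20 (SE 0.31, adjusted p = 0.661). That value was -0.37 without Model replicate 1, -0.04 without Model replicate 2, -0.02 without rt-PA+Acu replicate 1 or 2 and -0.61 without rt-PA+Acu replicate 3. Model and rt-PA+Acu overlapped at Gfap, and all 6 of these libraries were far above Sham. The summed level of the reactive list, in which Gfap is the gene with the most counts, was 4103, 5518 and 4752 CPM in the Model libraries and 2514, 2496 and 5314 CPM in the rt-PA+Acu libraries, so rt-PA+Acu replicate 3 lay within the Model range. On the reactive astrocytes list, lower DEGs numbered 6 without rt-PA+Acu replicate 2. On the reactive astrocytes list, the median was -2.24 without rt-PA+Acu replicate 3.

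Oligodendrocyte markers varied widely within groups. Their summed level was 1855, 4218 and 9325 CPM in the Model libraries and 23139, 9662 and 3608 CPM in the rt-PA+Acu libraries. Mbp, which encodes myelin basic protein, held 675, 1569 and 4099 CPM in Model and 9468, 3961 and 1296 in rt-PA+Acu, with overlapping groups and a log2 fold change of 1.21 (SE 0.79, adjusted p = 0.265). That value was 0.31 without rt-PA+Acu replicate 1, 0.79 without Model replicate 1 and 2.13 without Model replicate 3. The list had 3 higher and 0 lower DEGs of 12 tested (median 1.35), and 12 of the genes tested had a log2 fold change above 0. Mbp had the most counts, and the part of these cells in the result was not tested. Progenitor markers had 2 higher DEGs of 10 (median 0.69), of which Gpr17, a receptor of committed progenitors, held 14.3, 16.5 and 18.4 CPM in Model and 140.0, 124 and 43 in rt-PA+Acu, with a log2 fold change of 2.64 (SE 0.40, adjusted p = 0.00328). On the oligodendrocytes list, higher DEGs numbered 0 without Model replicate 1 or 2 or rt-PA+Acu replicate 1 or 2 and 6 without rt-PA+Acu replicate 3. On the oligodendrocyte progenitors list, higher DEGs numbered 1 without rt-PA+Acu replicate 2 and 4 without rt-PA+Acu replicate 3. On the oligodendrocyte progenitors list, lower DEGs numbered 1 without rt-PA+Acu replicate 1. On the oligodendrocytes list, the median was 0.47 without rt-PA+Acu replicate 1. On the oligodendrocyte progenitors list, the median was 0.19 without rt-PA+Acu replicate 1.

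Endothelial genes did not move as 1 block. Of 15 endothelial markers tested, 5 fell and 3 rose (median -0.59). Kdr, the main receptor for VEGF, held 94.7, 121 and 136 CPM in Model and 10.8, 7.85 and 15.4 in rt-PA+Acu, with a log2 fold change of -3.37 (SE 0.26, adjusted p = 0.000501). Slc2a1, the glucose transporter of the blood-brain barrier, held 331, 284 and 385 CPM in Model, 140.2, 135 and 146 in rt-PA+Acu and 242, 259 and 272 in Sham, with a log2 fold change of -1.25 (SE 0.13, adjusted p = 0.00116). Pecam1, an adhesion molecule of endothelial junctions, held 37.9, 43.8 and 118 CPM in Model, 18.5, 20.7 and 21.1 in rt-PA+Acu and 43.4, 45.9 and 38.4 in Sham, with a log2 fold change of -1.73 (SE 0.41, adjusted p = 0.0159), adjusted p = 0.0517 without rt-PA+Acu replicate 1 and adjusted p = 0.0565 without rt-PA+Acu replicate 2. At Slc2a1 and Pecam1 every rt-PA+Acu library was below every Sham library as well as every Model library, and Model replicate 3 was the highest library at Pecam1, which had a log2 fold change of -1.02 without it. Slco1c1, a thyroid hormone transporter of brain vessels, went the other way, from 25.6, 26.8 and 13 CPM in Model to 116, 111 and 61.5 in rt-PA+Acu, with a log2 fold change of 2.14 (SE 0.33, adjusted p = 0.00329). The summed level of the endothelial list was 792, 779 and 1115 CPM in the Model libraries, 603, 588 and 532 CPM in rt-PA+Acu and 958, 1075 and 1005 CPM in Sham. In rt-PA the sum was 1244, 949 and 1008 CPM, so the rt-PA+Acu libraries were the lowest 3 of 12. By CPM the gene with the most counts on this list was Slc2a1. Angiogenic ligands and receptors had 5 lower and 1 higher DEG of 16 (median -0.41). Angpt2, a destabilizer of vessels, fell by 2.78, and Angpt1, its stabilizing counterpart, rose by 1.68. Pericyte and smooth muscle markers had 1 lower and 1 higher DEG of 11 (median -0.18), beside 6.62% lower and 7.9% higher over all genes tested. The smooth muscle actin gene Acta2 fell, with a log2 fold change of -1.93 (SE 0.24, adjusted p = 0.00176). The adhesive protein gene Vtn rose, with a log2 fold change of 1.85 (SE 0.32, adjusted p = 0.00485). On the angiogenic ligands and receptors list, higher DEGs numbered 2 without Model replicate 3 or rt-PA+Acu replicate 3. On the pericytes and smooth muscle list, lower DEGs numbered 2 without Model replicate 1 or 3 or rt-PA+Acu replicate 3. Junction genes had 1 higher and 0 lower DEGs of 12 (median 0.30), near the 7.9% of all genes tested that were higher. Tjp1, the scaffold ZO-1, held 273, 274 and 248 CPM in Model and 289, 250.2 and 305 in rt-PA+Acu. On the tight and adherens junctions list, higher DEGs numbered 0 without Model replicate 2 or rt-PA+Acu replicate 1 or 2. On the endothelial cells list, the median was -0.35 without Model replicate 3. On the angiogenic ligands and receptors list, the median was -0.26 without Model replicate 3. On the pericytes and smooth muscle list, the median was -0.33 without Model replicate 1 and 0.065 without Model replicate 3. For tight and adherens junctions the median was 0.48 with DESeq2 and 0.49 with every gene of at least 1 count kept.

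Many genes of the circadian clock rose, 8 of 15 with 0 lower and a median of 1.11. Dbp, a clock output transcription factor, held 5.73, 7.7 and 18.1 CPM in Model, 144, 98.7 and 75.2 in rt-PA+Acu and 94.9, 109 and 104 in Sham, with a log2 fold change of 3.33 (SE 0.44, adjusted p = 0.00207). Hlf, of the same family, held 11.3, 16.9 and 25.9 CPM in Model and 316, 236 and 132 in rt-PA+Acu, with a log2 fold change of 3.66 (SE 0.40, adjusted p = 0.00122). Per3, a period gene, held 8.93, 14.4 and 19.6 CPM in Model and 67.5, 64.3 and 50.7 in rt-PA+Acu, with a log2 fold change of 2.09 (SE 0.27, adjusted p = 0.00197). Nr1d2, a repressor of the clock's positive arm, held 90.6, 80.8 and 107 CPM in Model, 199, 194 and 223 in rt-PA+Acu and 149, 141 and 152 in Sham, with a log2 fold change of 1.15 (SE 0.13, adjusted p = 0.0015).

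The cytosolic ribosomal proteins had 0 DEGs of 70 and a median of -0.33, the proteasome subunits 0 of 34 with -0.35, and the subunits of oxidative phosphorylation 0 of 77 with 0.16. By edgeR's quasi-likelihood test 42, 19 and 17 of these genes had an unadjusted p under 0.05, beside 45.7% of all genes tested, and DESeq2 called 0, 0 and 0. The glucocorticoid target list had 0 DEGs of 9 (median -0.099), with 1 at an unadjusted p under 0.05 (again beside 45.7%) and 0 by DESeq2. On the cytosolic ribosomal proteins list, lower DEGs numbered 1 without rt-PA+Acu replicate 3. On the glucocorticoid targets list, higher DEGs numbered 1 without Model replicate 3. On the oxidative phosphorylation subunits list, the median was 0.097 without rt-PA+Acu replicate 1 and 0.24 without rt-PA+Acu replicate 3. On the glucocorticoid targets list, the median was -0.30 without Model replicate 1, -0.25 without Model replicate 2 or rt-PA+Acu replicate 1, 0.32 without Model replicate 3, -0.053 without rt-PA+Acu replicate 2 and -0.063 without rt-PA+Acu replicate 3. For glucocorticoid targets it was -0.16 with scaling by library size alone, 0.04 in 1 fit over all 12 libraries and -0.05 with the replicate block.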

How the data were processed

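Raw counts per gene, deposited by the authors, came from 12 libraries grouped by their labels. The processing notes of the submitters name STAR 2.7.10a, featureCounts 2.0.1 and Salmon 1.9.0 with build mRatBN7.2. Limits drawn from 3 counts cover counting error only, since sequenced reads can be copies of the same molecule. Every comparison had a fit of its own over its 6 libraries in R 4.3.3 with edgeR 4.0.16 (TMM factors, filterByExpr, quasi-likelihood test, BH adjustment over all genes tested). CPM were computed from the counts with TMM factors over all 12 libraries, with a prior count of 2 for log2 CPM. Plots and lists were made in Python 3.11.15 with pandas 2.3.3, numpy 2.4.6 and matplotlib 3.10.9. Positions between Sham and rt-PA were projections of log2 CPM, compared by an exact two-sided permutation test. Fits were tested on simulated data.

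The comparison and the gene lists were chosen with earlier results of these data known. Apart from Igfbp2, Lcat, Dusp6 and Flt4, which were chosen after their values were seen, a gene could be named by any of 4 rules. It was on a list, the study's text names it, it was 1 of the 5 DEGs with the highest mean CPM in a direction, or it was 1 of the 10 DEGs that rose or fell most where the mean reached 5 CPM and the groups were apart. The alternatives tried were DESeq2 1.42.0, scaling by RLE factors or by library size, keeping all genes with 1 count, keeping genes with 10 counts in each library, a joint fit of the 12 libraries, a replicate block, dropping the fold change threshold, glmTreat with a fold of 2, other gene sets and a prior count of 0.5 for the positions, and leaving out each library in turn. The 4 promoters printed were picked by hand with the motif results in view, and a first pick had Mmp3 and Il11 in place of Tfpi2 and Anxa2. Genes absent from the table were not analysed here, and some genes on the lists are counted but not reported here by name.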

Additional observations from a re-analysis of the deposited data

How the results depend on the processing

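The 1866 DEGs of rt-PA+Acu vs Model became 4411 without the fold change threshold (2233 higher, 2178 lower) and 397 with glmTreat (160 higher, 237 lower), by construction of the thresholds. With 1 library left out they ranged from 1391 to 2305 (740 to 1185 higher, 651 to 1120 lower). The other settings gave 1501 to 2093. DEGs of rt-PA vs Model numbered 82 with DESeq2, 2 in 1 fit over all 12 libraries and 0 to 3 with 1 library left out, and the cause was not tested. Without the fold threshold and with glmTreat, rt-PA+Acu vs rt-PA had 4522 and 454 (1445 to 2510 with 1 library left out), and rt-PA vs Sham had 7127 and 1453 (2708 to 3206). The difference in position ranged from -0.604 to -0.748 with 1 library left out. Library size alone moved the median of all genes in rt-PA vs Sham from 0.00 to 0.15.

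With the replicate block, which treats libraries of the same number as pairs, rt-PA+Acu vs Model had 1501 DEGs. Correlations of same-number libraries were -0.255, -0.0772 and -0.213, and no Model library matched best with its own number. With 3 libraries per group, these values do not show a pairing by number and cannot exclude one.

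Of 89 named DEGs, 85 passed the test without each library in turn, and 66 passed glmTreat. The median of the striatal neuron list was 0.094 without Model replicate 3 and ranged from -0.34 to that value with 1 library left out, and that of the chemokine list was 0.32 with at least 10 counts in every library, which removes chemokines near 0 in rt-PA+Acu.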

Other observations

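Some genes put rt-PA+Acu outside the range of all 9 other libraries. All 3 rt-PA+Acu libraries lay above the other 9 at 337 of 12855 genes tested (2.62%) and below them at 340 (2.64%). The genes Igfbp2, Lcat, Dusp6 and Flt4 are given as examples chosen after their values were seen. Igfbp2, which binds insulin-like growth factors, held 50.1, 51.6 and 55.1 CPM in rt-PA+Acu, 6.11, 17.7 and 11.6 in Model, 14.6, 33.1 and 27.8 in Sham and 17, 13.5 and 23.1 in rt-PA. Lcat, which esterifies cholesterol in lipoproteins, held 10.1, 14.3 and 16.3 CPM in rt-PA+Acu, 1.91, 1.61 and 2.64 in Model, 8.3, 5.35 and 4.8 in Sham and 2.71, 2.16 and 3.32 in rt-PA. Both passed the test against Model, with log2 fold changes of 2.15 and 2.72. Dusp6, a phosphatase of ERK kinases, was lowest in rt-PA+Acu at 30.0, 33.1 and 28.5 CPM, beside 189, 109.7 and 99.3 in Model, 62.3, 71.2 and 57.9 in Sham and 100.05, 56.4 and 93.2 in rt-PA. Flt4, a VEGF receptor of lymphatic vessels, was also lowest there, at 1.69, 1.75 and 0.97 CPM beside 8.09, 8.72 and 14.3 in Model, 5.48, 4.43 and 4.54 in Sham and 13, 10.6 and 9.44 in rt-PA.

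DEGs among markers of tissue next to the cortex are given beside 7.9% higher and 6.62% lower DEGs over all genes tested. Meningeal and fibroblast markers had 6 higher DEGs of 11 tested and a median log2 fold change of 1.44. On the meninges and fibroblasts list, higher DEGs numbered 3 without Model replicate 1 or 3 or rt-PA+Acu replicate 1. The summed level of these markers was 37.2, 110.5 and 46.9 CPM in Model and 222, 95.3 and 115 CPM in rt-PA+Acu, and these groups overlapped. The rt-PA libraries held 386, 102 and 283 CPM and the Sham libraries 69.1, 197 and 146 CPM. For rt-PA over Model, the median of the list was 2.04 (10 genes tested, 0 DEGs). With rt-PA as the reference for rt-PA+Acu, the median was -0.67 (12 tested, 3 higher and 2 lower DEGs). A positive median over Model was thus also seen with rt-PA without acupuncture. Fmod, a collagen-binding proteoglycan, held 0.0763, 0.762 and 1.32 CPM in Model and 6.66, 5.5 and 7.09 in rt-PA+Acu, with a log2 fold change of 3.16 (SE 0.63, adjusted p = 0.00837). Choroid plexus markers had 1 lower DEG of 5 (median -0.87), Kl, which encodes klotho, at 8.47, 16.3 and 7.85 CPM in Model and 0.169, 0 and 0.373 in rt-PA+Acu, with a log2 fold change of -5.77 (SE 0.65, adjusted p = 0.00133). Otx2, a choroid plexus transcription factor, had 0 counts in all libraries. On the choroid plexus list, lower DEGs numbered 2 without rt-PA+Acu replicate 3. Ependymal markers had 1 higher DEG of 5 (median 0.25). On the ependymal cells list, higher DEGs numbered 0 without Model replicate 1, 2 or 3 or rt-PA+Acu replicate 2 or 3. Striatal neuron markers had 1 higher DEG of 9 (median -0.20). With 1 DEG each, the ependymal and striatal lists are not read as a change. On the striatal neurons list, higher DEGs numbered 0 without Model replicate 1 or rt-PA+Acu replicate 1 or 2 and 2 without rt-PA+Acu replicate 3. On the striatal neurons list, lower DEGs numbered 1 without rt-PA+Acu replicate 1. The part of such tissue in the results was not tested. On the choroid plexus list, the median was -0.051 without Model replicate 2 and -1.36 without Model replicate 3. For choroid plexus it was 0.34 among genes with at least 10 counts in every library and -0.51 with the replicate block. On the ependymal cells list, the median was 0.69 without Model replicate 1, 0.58 without Model replicate 2, 0.54 without rt-PA+Acu replicate 1 and 0.51 without rt-PA+Acu replicate 3. For ependymal cells it was 0.48 in 1 fit over all 12 libraries. On the striatal neurons list, the median was -0.34 without Model replicate 1 or rt-PA+Acu replicate 1, -0.081 without Model replicate 2, 0.094 without Model replicate 3, -0.084 without rt-PA+Acu replicate 2 and -0.10 without rt-PA+Acu replicate 3. For striatal neurons it was -0.13 with the replicate block.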
